A study of Mus musculus with 16 samples.

Results

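The nuclear genes of oxidative phosphorylation were followed in ribosome-bound and total RNA of the neonatal mouse cochlea. Members were the genes whose symbol marked a subunit of respiratory complex I (Nduf genes), complex II (Sdha to Sdhd), complex III (Uqcr genes and Cyc1), complex IV (Cox4 to Cox8 genes, Ndufa4 and Ndufa4l2) or complex V, the ATP synthase (Atp5 genes), with rows ending in -ps left out. Of 50316 genes listed, 87 matched, and 85 of these had values: 35 of complex I, 4 of complex II, 9 of complex III, 20 of complex IV and 17 of complex V. The other 2 were second identifiers of Ndufs3 and Uqcrc1 that were NA in every library. Atp5s and Atp5sl matched by name, although neither is a structural subunit of the ATP synthase.

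The 16 libraries were from P4 cochleae, with input and IP libraries of control and of DTR mice and 4 replicates of each, and each replicate was a pool of cochleae from several mice. Control mice carried GLAST CreERT/+ and Rpl22 HA/+, and DTR mice carried these alleles and Lgr5 DTR/+, which places the diphtheria toxin receptor in Lgr5-expressing cells, so that diphtheria toxin (DT) kills them. The methods state that DT and tamoxifen were injected into both genotypes at P1, while the sample labels give no treatment for the controls. Tamoxifen activates Cre in GLAST-expressing cells, where ribosomes then carry an HA-tagged Rpl22 protein, and these ribosomes were precipitated with their mRNA (IP). Input was a small share of the same homogenate, so an IP and an input library of the same number came from 1 pool. Cre follows the GLAST promoter. Hair cell markers summed to 764 to 944 CPM (read counts scaled to the same total in each library) in control input and were still at 299.9 to 372 CPM in control IP. Slc1a3, which encodes GLAST, was at 274 to 303 CPM in control input and 218 to 264 CPM in control IP, and Lgr5 was at 59.0 to 66.1 CPM in control input and 11.2 to 19.6 CPM in DTR input. Of 12 supporting cell and ridge markers, 8 were lower and 0 higher in DTR IP against control IP (limma, adjusted p under 0.05). Of all genes tested, 7.3% were lower and 8.44% higher in that comparison. Between the inputs, 9 of these markers were lower and 1 was higher in DTR, beside 5.21% and 7.17% of all genes tested. Reads on genes per library ranged from 28089836 to 41966310, so that 3 reads corresponded to 0.0715 to 0.107 CPM, a limit that covers counting error only.

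Oxidative phosphorylation makes most of the ATP of a resting cell. Complexes I and II feed electrons from NADH and succinate to ubiquinone, complex III passes them to cytochrome c, complex IV reduces oxygen, and the ATP synthase uses the proton gradient that complexes I, III and IV build. A few subunits are encoded in mitochondrial DNA and all others in the nucleus, and some nuclear subunits, most of them in complex IV, exist as isoforms used in particular tissues or at low oxygen.

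The summed level of the 85 members differed little between control and DTR libraries and was on average lower in IP than in input. In controls it was 13378 ± 1061 CPM in input (SD, n = 4) against 11763 ± 1053 CPM in the IP. In DTR it was 13326 ± 1317 CPM in input against 11879 ± 1094 CPM in the IP. The ranges overlapped between every pair of groups, from 10468 CPM in the lowest control IP library to 14774 CPM in the highest DTR input library. The 35 genes of complex I summed to 4146 ± 316 CPM in control input against 3810 ± 388 CPM in control IP. The 4 genes of complex II came to 964 ± 46.7 against 868 ± 71.8 CPM, and the 9 of complex III to 1288 ± 112 against 1217 ± 84.0 CPM. The 20 of complex IV came to 2394 ± 272 against 1996 ± 166 CPM, and the 17 of complex V to 4586 ± 326 against 3872 ± 353 CPM. In complex II, the 4 DTR input libraries (938 to 1029.7 CPM) lay above the 4 DTR IP libraries (803 to 936 CPM).

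**Figure D1:**
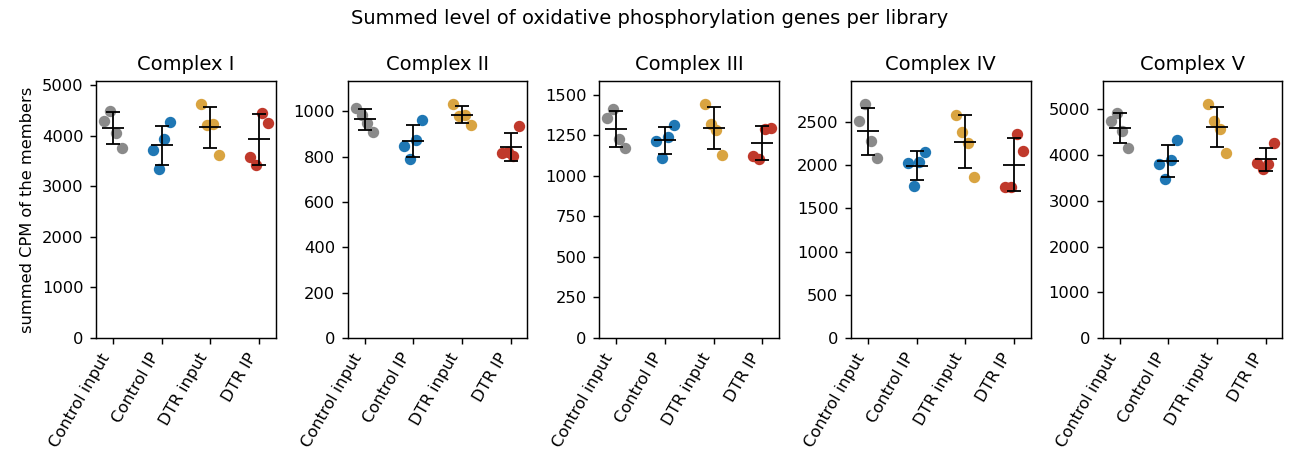
Summed CPM of the members of each complex (y axis, from 0) in the 16 libraries (points, by group), with group mean and SD as bars. The means of IP lie below those of input in each complex, as for complex V with 4586 CPM in control input against 3872 CPM in control IP, while the points of IP and input overlap in complexes I, III, IV and V.

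Reads per length, as CPM divided by the median length of a gene's annotated transcripts in kilobases, set the order of levels within the control input libraries. Ndufa4, a small subunit now placed in complex IV, and Atp5b, the catalytic beta subunit of the ATP synthase, led with 659 ± 91.45 and 659 ± 41.1 CPM per kilobase (SD, n = 4), and their ranges overlapped. Cox6a1, Cox6b1, Cox8a and Cox4i1 followed at 513 ± 43.1, 508 ± 64.6, 496 ± 48.6 and 467 ± 45.4 CPM per kilobase, each overlapping the next. In complex III Uqcr11, a small accessory subunit, was at 429.9 ± 38.4 CPM per kilobase, against 122 ± 9.54 for Cyc1 (cytochrome c1) and 121 ± 11.00 for Uqcrfs1 (the Rieske iron-sulfur protein). In complex II the iron-sulfur subunit Sdhb was at 206 ± 13.3 CPM per kilobase, the membrane anchors Sdhd and Sdhc at 171 ± 12.6 and 77.7 ± 4.89, and the flavoprotein Sdha at 126 ± 6.01. In complex I the core subunits Ndufv1 and Ndufs1 were at 94.8 ± 7.77 and 43.9 ± 1.71 CPM per kilobase. Ndufa1, a small accessory subunit, was highest in complex I at 386 ± 23.9 CPM per kilobase, and Ndufb2 lowest at 11.8 ± 1.58. Ndufb2 overlaps other annotated genes on both strands. Ndufv2, a core subunit that binds an iron-sulfur cluster, took the most reads of complex I, at 218 ± 21.6 CPM. Among Atp5 genes the alpha subunit Atp5a1 was at 327 ± 20.9 CPM per kilobase, the gamma subunit Atp5c1 at 282 ± 17.04, and Atp5s at 17.1 ± 1.89.

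**Figure D2:**
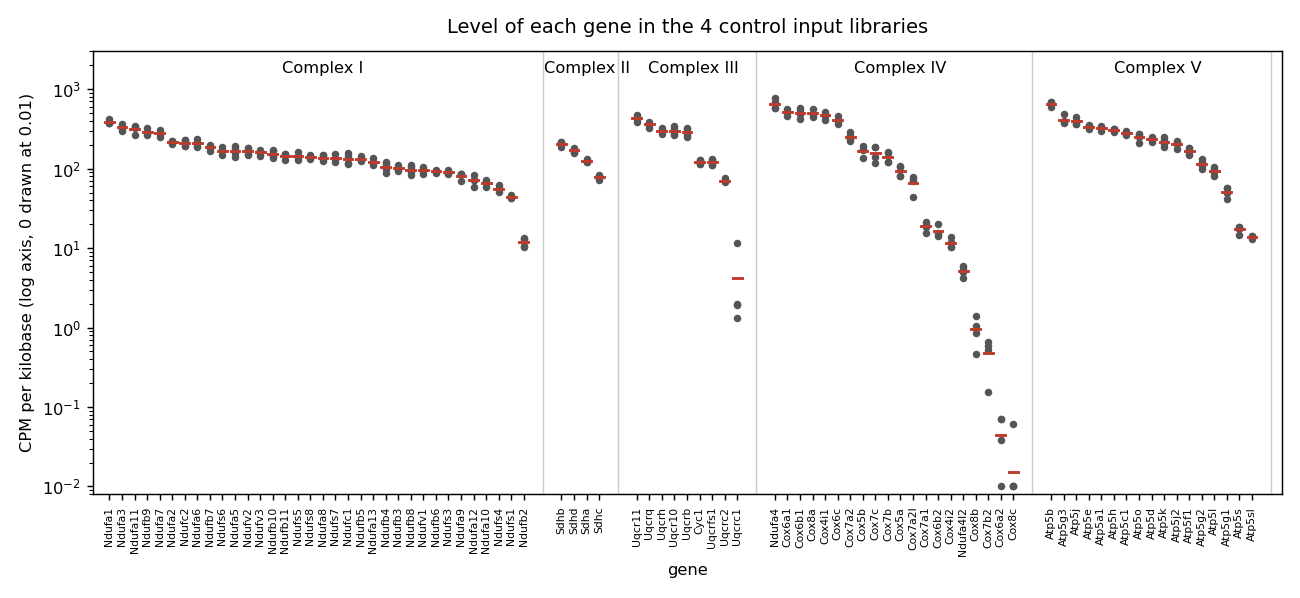
CPM per kilobase (log axis) of 84 of the 85 members in the 4 control input libraries (points), with the mean as a line, ordered within each complex. The means run from 659 for Ndufa4 down to 0.0154 for Cox8c, with the isoforms of complex IV at the low end and 1 library of Uqcrc1 above its other 3.

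The level of Uqcrc1 is uncertain. Reads that match several places may not be counted, and whether this lowered it was not tested. Uqcrc1, a core subunit of complex III, was at 3.31, 19.1, 3.22 and 2.17 CPM in control input against 3.14, 2.62, 3.498 and 7.62 CPM in control IP. In DTR it was at 3.43, 2.75, 3.22 and 3.29 CPM in input against 2.99, 8.19, 3.64 and 3.16 CPM in the IP. A single library stood above the others in 3 of the 4 groups, and a second identifier of the same symbol was listed without values. Ndufs3 also had a second identifier without values, and it was at a mean of 93.4 CPM in control input. Gapdh, a glycolytic gene with many processed pseudogenes, was at a mean of 5.73 CPM in control input. The 6 rows ending in -ps reached at most 2.87 CPM.

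The c subunits of the ATP synthase rotor come from 3 genes that encode the same mature protein. In control input Atp5g3 was at 409.7 ± 48.1 CPM per kilobase, Atp5g2 at 115 ± 14.3 and Atp5g1 at 50.9 ± 7.39. The order of the last 2 depends on the annotated lengths, which were 718, 586 and 2675 bases. Before division by length the means were 294, 67.5 and 136 CPM. Of the sum with Atp5g3 per length, Atp5g1 made up 11.1 ± 0.993% in control input against 10.1 ± 0.725% in control IP. In DTR the share was 10.9 ± 1.20% in input against 10.4 ± 1.19% in the IP. The adjusted p of these 3 genes (limma) was 0.36 or more in all 5 comparisons.

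Of the tissue-restricted isoforms of complex IV, Cox8c, Cox6a2, Cox8b and Cox7b2 were near the detection limit. Cox8c, a testis-type isoform, had 1 read in each of 2 libraries and 0 reads in the other 14. Cox6a2, the heart and muscle isoform of Cox6a, had 0 to 12 reads and was at 0 in 5 libraries. Cox8b, the muscle isoform of Cox8, and Cox7b2, a testis-type isoform, had 3 to 18 and 3 to 17 reads. These 4 genes did not reach 0.5 CPM in all 4 replicates of a group and were not tested, which left 81 members of 16994 genes tested. Per length, Cox8b was at 0.950 ± 0.391 CPM per kilobase in control input and its ubiquitous partner Cox8a at 496 ± 48.6, and Cox7b2 was at 0.480 ± 0.223 against 140.5 ± 22.2 for Cox7b.

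Control IP was compared with control input to ask which members were over- or under-represented on the ribosomes of GLAST-Cre+ cells. Of 81 members, 13 were lower and 1 was higher in the IP (limma, adjusted p under 0.05), against 20.7% and 19.3% of all genes tested. The lower members were spread over all complexes, with 5 of 35 in complex I, 1 of 4 in complex II, 1 of 9 in complex III, 3 of 16 in complex IV and 3 of 17 in complex V. The members' median LFC (log2 fold change of quantile normalized CPM + 0.5) was -0.12, beside 0.00 over all genes tested, and 77 of the 81 lay within 0.5 of 0. The unadjusted p was under 0.05 for 23 members. Leaving out 1 library at a time, the count of 14 fell to 6 without control input replicate 1, control input replicate 2 or control IP replicate 2, to 7 without control IP replicate 1 and to 9 without control IP replicate 3. In bulk RNA, fewer cells of a type and less RNA per cell cannot be told apart.

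Ndufa4l2, a paralogue of Ndufa4 that is induced at low oxygen, had the largest difference. It was at 5.27, 4.65, 3.87 and 5.61 CPM in control input against 1.55, 1.54, 0.882 and 1.63 CPM in control IP (LFC -1.39 ± 0.21 SE, adjusted p = 4.77e-05). In DTR input it was at 4.93, 4.52, 5.44 and 5.79 CPM and in DTR IP at 2.47, 1.67, 3.25 and 3.12 CPM (LFC -0.86 ± 0.21 SE, adjusted p = 0.0037). Every IP library was below every input library. As a share of the sum with Ndufa4 per length, it was 0.792 ± 0.165% in control input and 0.219 ± 0.0624% in control IP. Ndufa4 itself was at 303 ± 42.1 CPM in control input and 319 ± 25.4 CPM in control IP (LFC 0.14 ± 0.13 SE, adjusted p = 0.41). A stricter rule, which added an absolute LFC of at least 1 and a lowest value in the higher group more than 1.5 times the highest in the lower group (both as quantile normalized CPM), left Ndufa4l2 as the single member in control IP and no member in the other comparisons. Cox4i2 in DTR input against control input lay just under it, with a ratio of 1.48, and its ratio in CPM as deposited was 1.56. That rule took 7.68% of all genes in control IP against input, 5.77% in DTR IP against input, 2.47% in DTR IP against control IP and 2.34% in DTR input against control input.

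Ndufa4l2 overlaps Shmt2 on the opposite strand in the annotation, and the strand setting of the counting is not given in the sources used here.

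Markers of several cell types were also lower in IP than in input. Of 8 pericyte markers, Rgs5 and Pdgfrb among them, none was at 0. In control IP 7 of them were lower than in input, and in DTR IP 6 of them. Their summed level ranged over 444 to 512 CPM in control input against 170.1 to 220.1 CPM in control IP, and in DTR over 415 to 581 CPM in input against 210.5 to 295 CPM in the IP. All 6 endothelial markers were lower in both IPs, with sums of 261 to 309.6 CPM in control input and 90.99 to 113 CPM in control IP. Macrophage markers (6 of 6) and hair cell markers (10 of 12) were lower in both IPs as well, and in each IP the other 2 hair cell markers were higher. The 4 erythroid markers tested and 5 of 6 Schwann cell markers were lower in both IPs too, with 0 higher. For comparison, 20.7% of all genes were lower and 19.3% higher in control IP, and 20.5% and 18.6% in DTR IP. The part of these cell types in the difference of Ndufa4l2 was not tested.

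Ndufs1, the largest core subunit of complex I, was next. It was at 112, 122, 114 and 113 CPM in control input and 77.1, 81.3, 58.96 and 68.1 CPM in control IP (LFC -0.68 ± 0.13 SE, adjusted p = 3.98e-04). In DTR input it was at 136, 126, 113 and 106 CPM and in DTR IP at 87.6, 84.4, 54.50 and 69.3 CPM (LFC -0.71 ± 0.13 SE, adjusted p = 3.00e-04). The groups did not overlap in either treatment, and the difference was negative within all 4 pools of each. Ndufs1 also overlaps opposite-strand genes, among them Eef1b2.

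Sdha, the catalytic flavoprotein of complex II and also an enzyme of the TCA cycle, was lower in the IP without overlap. It was at 388, 351, 366 and 352 CPM in control input and 265, 259, 238 and 278 CPM in control IP (LFC -0.43 ± 0.12 SE, adjusted p = 0.0088), and at 358, 345, 337 and 351 CPM in DTR input and 260.3, 269, 169 and 256 CPM in DTR IP (LFC -0.48 ± 0.12 SE, adjusted p = 0.0043). DTR IP replicate 3 was lowest. The other 3 subunits did not pass: Sdhb had an LFC of 0.14, Sdhc of 0.01 and Sdhd of 0.02 in control IP. Sdha kept both calls in all 20 alternatives, which include leaving out DTR IP replicate 3.

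Cox7a2, the ubiquitous isoform of a small complex IV subunit, was at 172, 192, 154 and 145 CPM in control input and 112, 101, 112 and 120.0 CPM in control IP (LFC -0.54 ± 0.14 SE, adjusted p = 0.0039). In DTR IP it was at 109, 103, 132 and 125 CPM, against 196, 173, 157 and 121 CPM in DTR input (LFC -0.43 ± 0.14 SE, adjusted p = 0.016), and these groups overlapped. The DTR call was lost without DTR input replicate 1, DTR input replicate 2 or DTR IP replicate 2, with adjusted p of 0.068, 0.0501 and 0.054. Atp5e, the epsilon subunit of the ATP synthase stalk, was at 140.1, 149, 143 and 131 CPM in control input and 89.1, 79.9, 98.4 and 115 CPM in control IP (LFC -0.55 ± 0.16 SE, adjusted p = 0.010). In the DTR pair its LFC was -0.39 (adjusted p = 0.065). Atp5b was at 1300.4, 1338, 1255 and 1155 CPM in control input and 966, 912, 936 and 1141 CPM in control IP (LFC -0.33 ± 0.13 SE, adjusted p = 0.048), and at 1320.2 ± 126 and 964 ± 149 CPM in the DTR pair (LFC -0.36 ± 0.13 SE, adjusted p = 0.034). Atp5a1 was close to the threshold in both (LFC -0.33 ± 0.13 SE, adjusted p = 0.049 in control IP, adjusted p = 0.066 in DTR IP). Blocked on the pool, Atp5a1 had an adjusted p of 0.029 in DTR IP.

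The other members that passed were small accessory subunits, except for the core protein Uqcrc2. Ndufa1, Ndufb9 and Cox8a were lower in both IPs: Ndufa1 by an LFC of -0.38 in control and -0.43 in DTR, Ndufb9 by -0.33 and -0.36, and Cox8a by -0.29 and -0.38. Ndufc1 (LFC -0.47 ± 0.16 SE, adjusted p = 0.027), Ndufb2 (-0.38) and Uqcr10 (-0.39) passed in the control pair, where their DTR values were -0.23, -0.07 and -0.26. Uqcrq (-0.37) and Uqcrc2 (-0.31) passed in the DTR pair, with control values of -0.29 and 0.02. Differences between the treatments are given by the interaction.

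Ndufs4, an accessory subunit needed for the assembly of complex I and known from a mouse model of Leigh syndrome, was higher in both IPs. It was at 92.8, 104, 98.1 and 85.4 CPM in control input and 138, 123, 134 and 112 CPM in control IP (LFC 0.43 ± 0.14 SE, adjusted p = 0.019). In the DTR pair it was at 101, 94.9, 106 and 71.8 and 112, 127, 169 and 119.6 CPM (LFC 0.50 ± 0.14 SE, adjusted p = 0.0073). Every IP library was above every input library of its treatment. The control call was lost without control input replicate 4 or control IP replicate 1 (adjusted p = 0.057 and 0.053) and with the length correction described below (adjusted p = 0.081).

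DTR IP was compared with DTR input to ask the same after damage. Of 81 members, 10 were lower and 2 were higher, against 20.5% and 18.6% of all genes. The unadjusted p was under 0.05 for 18 members. The count of 12 fell to 6 without DTR input replicate 1 and to 7 without DTR input replicate 2. The members' median LFC was -0.10, beside -0.03 over all genes. Cox6b2, a testis-type isoform of Cox6b, was the second higher member. It was at 6.97, 6.20, 6.67 and 7.07 CPM in DTR input and 9.16, 8.54, 13.2 and 9.27 CPM in DTR IP (LFC 0.57 ± 0.16 SE, adjusted p = 0.0077), with no overlap. In the control pair it was at 6.67, 8.73, 6.504 and 6.24 and 8.28, 10.01, 7.82 and 8.66 CPM (LFC 0.35 ± 0.16 SE, adjusted p = 0.081), where the ranges overlapped and the adjusted p was 0.046 when blocked on the pool. Of the sum with Cox6b1 per length, Cox6b2 made up 3.09 ± 0.288% in control input against 4.59 ± 1.05% in control IP, and 3.16 ± 0.494% in DTR input against 5.06 ± 0.714% in DTR IP. Blocking on the pool also brought Cox7b (0.032), Cox7c (0.013) and Uqcrb (0.040) under the threshold in the control pair and Cyc1 (0.049) in the DTR pair, and it lost Cox8a (0.069) and Ndufb9 (0.051) in the control pair.

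**Figure D3:**
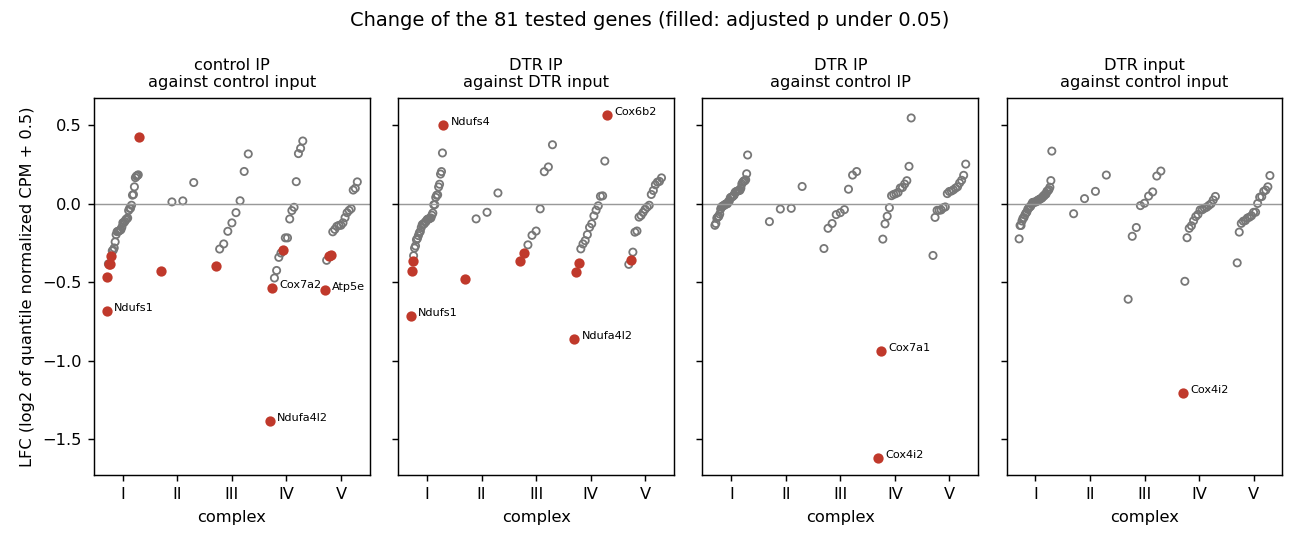
LFC (y axis) of the 81 tested members in 4 comparisons, grouped by complex (x axis), with members past an adjusted p of 0.05 filled and those of them beyond 0.5 named. In IP against input most members lie between -0.5 and 0.5 with Ndufa4l2 at -1.39 and -0.86, and between DTR and control Cox4i2 and Cox7a1 lie apart from the rest.

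The direction of the whole group in IP against input was not the same in each pool. In controls the members' median difference was -0.18 in pool 1, -0.45 in pool 2, -0.05 in pool 3 and 0.23 in pool 4, with 61, 75, 48 and 23 of 81 members lower. In DTR it was -0.37, -0.31, 0.07 and 0.30, with 77, 72, 28 and 6 members lower. Over all genes the same medians lay between -0.05 and 0.03. Of the members called, 11 of the 13 lower members in controls were lower in all 4 pools, and 5 of the 10 lower members in DTR. The other 7 were lower in 3 of 4 pools. These members were called from the same libraries, so the counts of pools give no separate support for the calls. Ndufs1 differed by -0.51, -0.62, -0.96 and -0.64 in the 4 control pools, and Ndufa4l2 by -1.40, -1.26, -1.61 and -1.27.

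**Figure D4:**
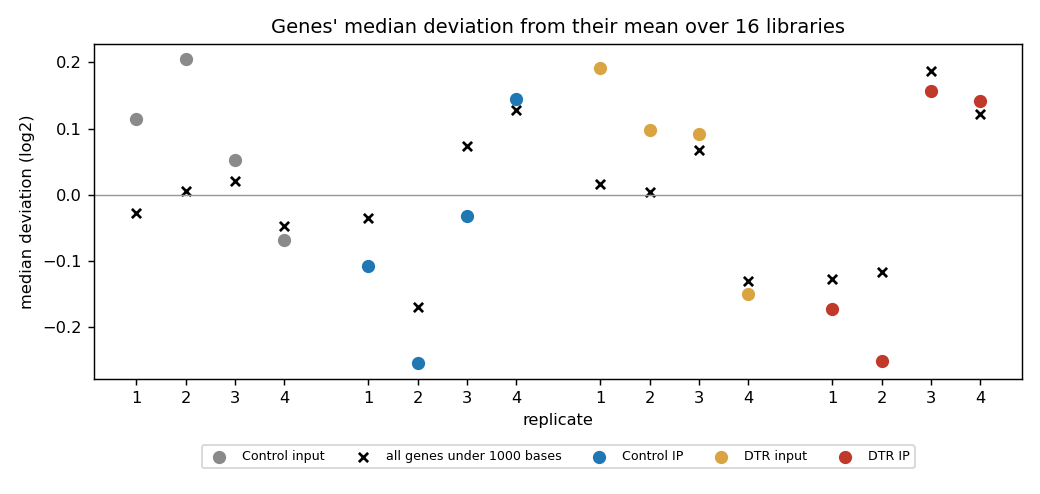
Median deviation (log2) of the 81 tested members (coloured points) and of all tested genes with transcripts under 1000 bases (crosses) from their mean over the 16 libraries, per replicate and group. Members are lowest in replicates 1 and 2 of both IPs and in replicate 4 of DTR input, and highest in control input replicate 2.

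Transcript length moved with these differences in some libraries and not in others. The median transcript length was 747 bases for the tested members and 2533 bases for all tested genes, and 53 members were under 1000 bases. Over all genes under 1000 bases, the median deviation from the 16-library mean was -0.17 in control IP replicate 2 and 0.19 in DTR IP replicate 3, where the members' medians were -0.25 and 0.16. In control input replicates 1 and 2 the members' medians were 0.11 and 0.20, while those of all genes under 1000 bases were -0.03 and 0.01. In DTR input replicates 1 and 2 they were 0.19 and 0.10, against 0.02 and 0.00. With a length trend removed from each library, 25 members were lower and 1 higher in control IP, and 18 were lower and 4 higher in DTR IP. By the same correction 20.3% of all genes were lower and 19.5% higher in control IP, and 20.8% were lower and 19.2% higher in DTR IP. The corrected medians by pool were -0.22, -0.37, -0.14 and 0.09 in controls and -0.30, -0.26, -0.04 and 0.07 in DTR. Without the correction, members under 1000 bases had a median LFC of -0.14 in control IP and longer members -0.10, beside 0.02 and -0.01 over all genes. Also without it, 44 of 81 cytosolic ribosomal protein genes, which are also short, were lower in control IP and 0 higher (median -0.44). In DTR IP 27 were lower and 2 higher (median -0.23). Over all genes, 20.7% were lower and 19.3% higher in control IP, and 20.5% and 18.6% in DTR IP.

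DTR IP was compared with control IP to ask how damage changed the members in GLAST-Cre+ cells. Of 81 members, 2 were lower in DTR IP, against 7.3% of all genes, and none was higher by limma, against 8.44%. The unadjusted p was under 0.05 for 5 members, and both edgeR and DESeq2 called 1 member higher, Ndufa4l2. The members' median LFC was 0.05 (all genes 0.00), and 78 of 81 lay within 0.5 of 0. Both lower members were minor isoforms of complex IV.

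Cox4i2 encodes an isoform of the regulatory subunit COX4 that is induced at low oxygen and is known from lung and vascular cells. It was at 9.81, 7.22, 12.9 and 15.3 CPM in control IP against 2.89, 2.60, 3.38 and 5.23 CPM in DTR IP (LFC -1.62 ± 0.27 SE, adjusted p = 2.76e-04, 95% CI -2.18 to -1.06). In input it was at 7.63, 7.49, 9.91 and 8.82 CPM in controls and 2.63, 3.69, 3.27 and 4.81 CPM in DTR (LFC -1.20 ± 0.27 SE, adjusted p = 0.0045, 95% CI -1.76 to -0.65). All 8 DTR libraries were below all 8 control libraries. The difference within replicate numbers was -1.76, -1.27, -1.88 and -1.57 in IP and -1.53, -0.92, -1.51 and -0.86 in input. Both calls were kept in all 20 alternatives, with adjusted p up to 0.0024 in IP and 0.021 in input. The major isoform Cox4i1 was at 272 ± 39.3 CPM in control IP against 287 ± 44.2 CPM in DTR IP (LFC 0.13 ± 0.13 SE, adjusted p = 0.59). Cox4i2 made up 4.05 ± 0.699% of the Cox4 sum per length in control IP and 1.24 ± 0.270% in DTR IP, and 2.45 ± 0.479% and 1.11 ± 0.426% in the inputs.

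Cox7a1, the heart and muscle isoform of Cox7a, was at 9.12, 9.02, 11.52 and 10.4 CPM in control IP against 3.89, 3.42, 7.85 and 6.91 CPM in DTR IP (LFC -0.94 ± 0.24 SE, adjusted p = 0.010, 95% CI -1.44 to -0.44). The groups did not overlap, and DTR IP replicates 1 and 2 were lowest. The call was kept in all 20 alternatives, with adjusted p up to 0.042. In input it was at 8.58, 8.14, 9.41 and 6.80 CPM in controls and 5.997, 5.07, 7.46 and 5.36 CPM in DTR (LFC -0.49 ± 0.24 SE, adjusted p = 0.22), and these groups overlapped. The difference within replicate numbers was -0.66, -0.61, -0.33 and -0.38 in input, and the adjusted p was 0.040 with the length correction and the replicate block. Cox7a1 made up 11.9 ± 1.04% of the sum with Cox7a2 per length in control IP and 6.42 ± 1.75% in DTR IP. Cox7a2 was at 111 ± 7.76 CPM in control IP against 117 ± 13.8 CPM in DTR IP. Cox7a2l, a related protein that joins complexes III and IV, was at 68.2 ± 18.02 and 63.4 ± 14.9 CPM (LFC -0.13 ± 0.22 SE, adjusted p = 0.75).

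**Figure D5:**
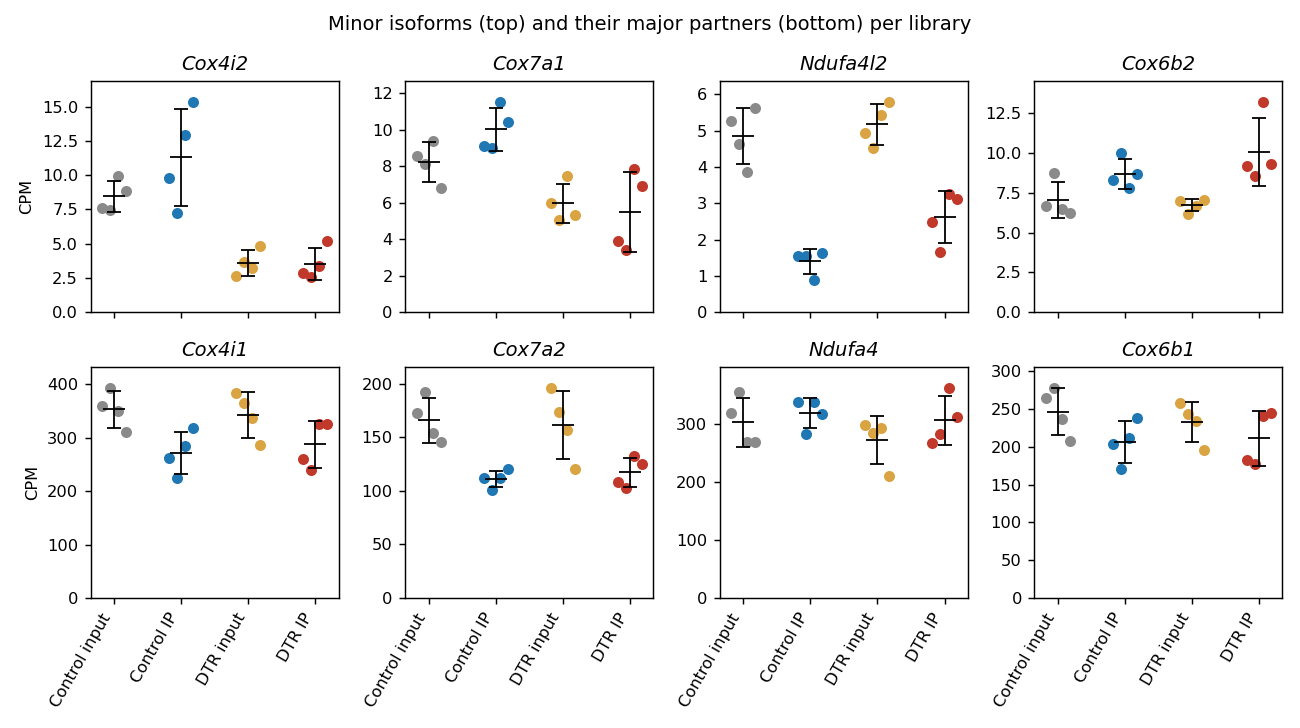
CPM (y axis, from 0) of 4 minor isoforms (top) and their major partners (bottom) in the 16 libraries (points, by group), with mean and SD as bars. Cox4i2 is lower in all DTR than in all control libraries, Cox7a1 in DTR IP than in control IP, and Ndufa4l2 in IP than in input, while the partner genes overlap between control and DTR.

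Ndufa4l2 moved the other way and did not pass the test. It was at 1.40 ± 0.350 CPM in control IP against 2.63 ± 0.722 CPM in DTR IP (LFC 0.55 ± 0.21 SE, adjusted p = 0.094), and every DTR IP library was above every control IP library in CPM as deposited. It passed in 7 of 20 alternatives, with an adjusted p of 0.040 when blocked on the replicate number, 0.029 by edgeR's quasi-likelihood test and 0.011 by DESeq2. In input it was at 4.85 ± 0.767 and 5.17 ± 0.558 CPM (LFC 0.02 ± 0.21 SE, adjusted p = 0.97).

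Ratios of an isoform to its partner do not depend on the scaling of a library, and 6 ratios were compared in 4 comparisons each. The log2 ratio of Cox4i2 to Cox4i1 differed by -1.76 ± 0.20 (SE) between DTR IP and control IP and by -1.21 ± 0.31 between the inputs. That of Cox7a1 to Cox7a2 differed by -1.02 ± 0.22 between the IPs, and that of Ndufa4l2 to Ndufa4 by 0.97 ± 0.30. None of these pairs of groups overlapped. Each had a p of 0.029 in a two-sided exact permutation test, the smallest that 4 libraries against 4 can give, and 0.069 after adjustment over the 24 tests. Some ratios of IP against input had the same p. Those of Cox4i2 (0.75 ± 0.20) and Cox7a1 (0.86 ± 0.13) were higher in control IP, while in the DTR pair (0.21 and 0.26) the groups overlapped. The ratio of Cox6b2 to Cox6b1 was higher in both IPs (0.57 and 0.71), and that of Ndufa4l2 to Ndufa4 lower (-1.90 and -1.19).

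Markers of several cell types also differed between DTR and control, some lower and others higher. Over all genes, 7.3% were lower and 8.44% higher in DTR IP, and 5.21% lower and 7.17% higher in DTR input. The summed level of the 12 supporting cell and ridge markers ranged over 7546 to 8421 CPM in control IP against 5864 to 7395 CPM in DTR IP, and over 6273 to 10026 and 5299 to 6783 CPM in the inputs. Of 6 Schwann cell markers, 2 were lower in DTR IP and 5 were lower in DTR input. Of 8 pericyte markers, 1 was lower and 1 higher in DTR IP, with Rgs5 at an LFC of 0.28 (adjusted p = 0.41). Of 10 striated muscle markers 5 were tested, and 2 of these, Acta1 and Actn2, were higher in DTR IP (LFC 2.57 and 1.80) and in DTR input, while the summed level of the list was 6.93 to 9.40 CPM in control IP against 12.3 to 17.3 CPM in DTR IP. Of 6 macrophage markers 4, of 6 mesenchyme markers 3 and of 6 endothelial markers 2 were higher in DTR IP. Whether these cells had a part in the changes of Cox4i2 and Cox7a1 was not tested.

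DTR input was compared with control input for changes in the whole cochlear tissue. Of 81 members, Cox4i2 was lower, against 5.21% of all genes, and none was higher by limma, edgeR or DESeq2, against 7.17% by limma. The unadjusted p was under 0.05 for 2 members, and the members' median LFC was -0.01. Atp5s, a coupling factor, was at 26.6, 28.2, 22.3 and 28.7 CPM in control input and 23.01, 20.2, 24.2 and 15.4 CPM in DTR input (LFC -0.38 ± 0.14 SE, adjusted p = 0.098). Its adjusted p was 0.046 by DESeq2 and 0.039 without DTR input replicate 3, where the count of members called was 2.

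The difference between the changes in IP and in input was tested with the interaction. None of the 81 members passed by limma, edgeR or DESeq2, against 0% of all genes higher and 0.0118% lower by limma, and the unadjusted p was under 0.05 for 0 members. The change of Cox4i2 differed between IP and input by -0.41 (95% CI -1.20 to 0.38) and that of Cox7a1 by -0.45 (95% CI -1.15 to 0.26), intervals that included 0. For Ndufa4l2 the difference was 0.52 (95% CI -0.11 to 1.16).

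Between DTR IP and control IP, no core subunit passed the test, and the intervals differed in width. The LFC was 0.06 for Ndufv1 (95% CI -0.18 to 0.29) and -0.03 for Sdhb (95% CI -0.27 to 0.20). Uqcrc1, whose level is uncertain, had a wide interval, with an LFC of -0.06 (95% CI -1.05 to 0.94). For Uqcrfs1 it was -0.16 (95% CI -0.39 to 0.08) and for Cyc1 0.21 (95% CI 0.00 to 0.41). The complex IV subunits Cox5a and Cox5b, which bind near the catalytic core, had LFCs of -0.08 (95% CI -0.42 to 0.26) and 0.06 (95% CI -0.29 to 0.41). Atp5c1 had an LFC of -0.09 (95% CI -0.30 to 0.13).

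Other genes of mitochondrial energy metabolism gave different counts. The 13 protein genes of mitochondrial DNA summed to 6544 to 8779.5 CPM in control input against 2676 to 5845 CPM in control IP, and in DTR to 3518 to 13571 CPM in input against 1369.5 to 4010.3 CPM in the IP. In control IP 5 were lower and 2 higher than in input, beside 20.7% and 19.3% of all genes. In DTR IP 6 were lower and 0 higher, beside 20.5% and 18.6%. The tag was on Rpl22, a cytosolic ribosomal protein. Whether reads of these 13 genes in the IP came from tagged ribosomes was not tested. mt-Co1, a catalytic subunit of complex IV, had an LFC of -1.89 in control IP against input and -1.10 in DTR IP against control IP (adjusted p = 0.023). It was the single gene of the 13 called in DTR IP against control IP, beside 7.3% of all genes lower. In that comparison all 13 had a negative LFC, with a median of -0.98. The 2 genes higher in control IP than in input had wide errors, with an LFC of 4.02 ± 1.55 (SE) for mt-Atp6 and 3.51 ± 1.14 for mt-Nd4l.

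Of 45 assembly factors tested, 7 in control IP and 10 in DTR IP passed, all higher than in input, which is 15.6% and 22.2% of them beside 19.3% and 18.6% of all genes. They included Atpaf1, a chaperone of the ATP synthase (LFC 1.25 and 1.29), and Cox10, which makes heme for complex IV (1.00 and 0.82). Timmdc1, a complex I assembly factor, was the assembly factor that rose in DTR IP against control IP (LFC 0.85, adjusted p = 1.78e-04). Of 76 mitochondrial ribosomal protein genes, 10 were higher and 0 lower in each IP than in input. The higher share of 13.2% was below those shares of all genes. The lower share was 0%, against 20.7% and 20.5% of all genes. Of 12 regulators of mitochondrial biogenesis, 3 were higher and 3 lower in control IP, with the coactivator Ppargc1b at 1.95 and the transcription factor subunit Gabpa at -0.99, and 2 were higher and 2 lower in DTR IP. That is 25% each way in control IP and 16.7% each way in DTR IP. Over all genes 19.3% and 18.6% were higher, and 20.7% and 20.5% lower.

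Of 18 genes of the TCA cycle and pyruvate dehydrogenase, 7 were lower and 2 higher in each IP. Beside them, 20.7% and 20.5% of all genes were lower and 19.3% and 18.6% higher. Among the lower TCA cycle genes were citrate synthase Cs (-0.44 in control IP) and Ogdh (-0.81), and among the higher Idh2 (0.40). Of 17 glycolysis genes, 6 were lower in DTR IP than in control IP, against 7.3% of all genes. In DTR input 2 were lower than in control input, against 5.21%. The 6 were Aldoa, Aldoc, Pfkl, Pgk1, Slc2a1 and Tpi1, with LFCs between -0.84 for Aldoc and -0.36 for Tpi1. The 11 hypoxia response genes share Slc2a1 and Ldha with the glycolysis list. Bnip3 (-0.57) and Slc2a1 (-0.61) were lower in DTR IP than in control IP, against 7.3% of all genes. In control IP 4 were higher than in input and 0 lower, with Adm at an LFC of 1.92, against 19.3% and 20.7% of all genes. In DTR IP 4 were higher and 2 lower than in input, against 18.6% and 20.5%. Whether the hypoxia genes had a part in the change of Cox4i2 was not tested.

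Promoters were available for 66 of the 85 members in RefSeq (GRCm38.p6), as 250 bases before to 50 after each gene's start, for 71 starts in all. They are shown for the isoforms Cox7a1, Cox7a2 and Cox6b2, which passed a test, and for Sdhb, a core subunit that passed none. Letters searched for on both strands are in capitals: the core GCGCATGC of the nuclear respiratory factor NRF1, CCGGAAG of ETS factors such as GABP, AAGATGG of YY1, the CCAAT box and the TATAAA box. No 2 matches overlapped in these 4 promoters. Those of Cox4i2, Cox4i1, Ndufa4l2 and Ndufs1 were not used here.
Cox7a1 (chr7:30183921-30184220, plus strand): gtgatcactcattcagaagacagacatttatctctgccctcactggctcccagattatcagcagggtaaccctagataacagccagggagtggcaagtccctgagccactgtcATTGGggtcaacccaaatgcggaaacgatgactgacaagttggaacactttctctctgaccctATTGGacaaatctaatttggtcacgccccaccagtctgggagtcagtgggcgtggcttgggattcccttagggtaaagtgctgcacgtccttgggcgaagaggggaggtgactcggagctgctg
Cox7a2 (chr9:79759804-79760103, minus strand): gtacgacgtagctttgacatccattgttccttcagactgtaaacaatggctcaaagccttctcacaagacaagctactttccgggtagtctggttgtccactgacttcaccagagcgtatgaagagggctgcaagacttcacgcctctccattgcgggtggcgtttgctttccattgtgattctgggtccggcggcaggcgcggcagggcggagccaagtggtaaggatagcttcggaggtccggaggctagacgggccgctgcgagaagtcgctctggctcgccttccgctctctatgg
Cox6b2 (chr7:4753045-4753344, minus strand): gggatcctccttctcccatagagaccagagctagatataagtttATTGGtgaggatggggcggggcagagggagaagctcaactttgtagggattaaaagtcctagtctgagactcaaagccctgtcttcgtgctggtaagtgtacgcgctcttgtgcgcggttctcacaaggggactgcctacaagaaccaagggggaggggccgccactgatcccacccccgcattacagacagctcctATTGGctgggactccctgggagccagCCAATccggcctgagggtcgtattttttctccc
Sdhb (chr4:140961021-140961320, plus strand): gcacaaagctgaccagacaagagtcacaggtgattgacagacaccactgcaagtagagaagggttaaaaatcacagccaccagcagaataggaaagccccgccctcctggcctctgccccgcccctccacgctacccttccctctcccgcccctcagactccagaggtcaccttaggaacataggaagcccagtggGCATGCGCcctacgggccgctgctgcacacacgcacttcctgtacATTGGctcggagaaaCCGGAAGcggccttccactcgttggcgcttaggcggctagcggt

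The Sdhb promoter held an NRF1 core, an ETS core and a CCAAT box, whereas those of Cox7a1 and Cox6b2 held only CCAAT boxes in either orientation and that of Cox7a2 held none of these letters. The NRF1 core was in 14.1% of the 71 member promoters and in 2.71% of all 32851 promoters. The ETS core was in 22.5% and 8.86%, and the YY1 core in 14.1% and 6.34%. The CCAAT box was in 42.3% and 37.4%, and the TATAAA box in 11.3% and 13.6%. Base composition differed as well, with a median GC content of 57.3% in member promoters and 52.7% in all, and its part in these shares was not tested.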

How the data were processed

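The authors deposited CPM (read counts scaled to the same total) for 16 libraries. Their methods name HISAT2 and HTSeq with GRCm38, the submitters' processing notes name TopHat, and the annotation release and strand setting are not given in the sources used here. All values were whole multiples of 1 read (100% within 0.02 reads). CPM were quantile normalized, and log2(CPM + 0.5) was tested for the 16994 genes that reached 0.5 CPM in each of the 4 replicates of some group, with limma 3.58.1 (R 4.3.3, trend, all 16 libraries, Benjamini-Hochberg over all genes, 0.05), after checks on simulated data. A fold change on this scale understates the change of low genes. Each replicate was a separate pool. IP and input of 1 number shared a pool per the study's methods, and the main test did not block on the pool or the replicate number. Their deviations from the group means had mean correlations of 0.373 in control and 0.407 in DTR. Between control and DTR, same-number libraries were not from 1 pool. Their mean correlations were 0.357 in input and 0.388 in IP, so these values do not bear on a shared pool. Taking deviations from each group's mean by itself pushes the mean for other numbers (-0.119 to -0.135) below 0.

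Alternatives were the scaling, pseudocount, filter, samples, block, a correction for transcript length, edgeR 4.0.16 and DESeq2 1.42.0 on recovered reads, and each library left out. The CQN correction for length in the study's methods was not applied. Members and gene lists were chosen with earlier results of these data known. Members named were those with the largest LFC per comparison, isoform sets, core subunits, and those with the most and fewest reads per complex, and the rest that passed were named after their values were seen. The named values of 1 member are not reported here.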

Additional observations from a re-analysis of the deposited data

Results flagged for a closer look

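In 9 of 176 groups of 4 libraries, 1 library lay far from its group, its gap to the nearest other library taking nearly the whole range of the group (Dixon's test), a rate that chance gives in about 1 of 20 groups. Atp5a1 was at 742 CPM in control IP replicate 4, with the others at 576 to 602 CPM. Ndufv1 was at 146 CPM in the same library, with the others at 121 to 124 CPM. Ndufa4l2 was at 0.882 CPM in control IP replicate 3, with the others at 1.54 to 1.63 CPM. Cox6b2 was at 13.2 CPM in DTR IP replicate 3, with the others at 8.54 to 9.27 CPM, and Sdha was at 169 CPM in that library, with the others at 256 to 269 CPM. The summed level of complex II was 936 CPM in DTR IP replicate 4, with the others at 803 to 821 CPM. Ndufa4 was at 210.2 CPM in DTR input replicate 4, with the others at 286 to 299 CPM. Uqcrc1 was at 19.1 CPM in control input replicate 2, with the others at 2.17 to 3.31 CPM, and at 8.19 CPM in DTR IP replicate 2, with the others at 2.99 to 3.64 CPM.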

How the results depend on the processing

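Of 29 calls of single members, none reversed under the alternatives run, and each was tested again under 20 of them: 483 of these results kept the call and 97 lost it. The calls of Cox4i2 (IP and input) and Cox7a1 (IP) between DTR and control were kept in all 20, and so were 5 of 14 calls in control IP against input and 5 of 12 in DTR IP against input. For control IP against input, 14 members passed, against 7 without a filter on low values, 8 by edgeR, 26 with the length correction, 32 with that correction and the replicate block, 1 with an LFC of at least 1 and separation, and 6 to 19 with a library left out. For DTR IP against input, 12 passed, against 22 with the length correction, 27 with the block as well, 0 with the stricter rule and 6 to 17 with a library left out. For DTR IP against control IP, 2 passed, against 5 with the length correction and block and 0 with the stricter rule. For DTR input against control input, 1 passed, against 2 with the length correction, 3 with the block as well, 2 by DESeq2, 0 with the stricter rule and 1 to 2 with a library left out. The replicate block alone gave 16, 14, 3 and 1 members in these comparisons and 0 for the interaction. Apart from fewer members passing where a rule is stricter, the cause was not tested. Without Atp5b the summed level was 12116 CPM in control input and 12006 CPM in DTR input.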
